A study of Mus musculus with 26 samples.

Results

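The genes described here are 9 adipocyte lineage transcription factors and markers, *Pparg*, *Cebpa*, *Cebpb*, *Cebpd*, *Fabp4*, *Zfp423*, *Ebf2*, *Prdm16*, and *Pdgfra*, taken by name from the 52962 genes of the count table. They were followed as a readout of the differentiation state of brown preadipocyte lines that differ in the insulin receptor (IR) they carry. The parent cells came from the brown fat of newborn mice with loxP-flanked *Insr* and *Igf1r*, were immortalized with a retrovirus for the simian virus large T antigen, and were exposed to Cre recombinase from an adenovirus, which gave double knockout (DKO) cells. All lines share these steps. DKO cells carrying empty vector were compared with DKO cells given, by retrovirus, the human B isoform of the receptor (IR), the same receptor with a lysine-to-arginine change that kills its kinase (K1030R), a receptor without the 79 C-terminal residues (∆CT), or a receptor with only 36 intracellular juxtamembrane residues (JMO). Serum was withheld for 6 h, and receptor lines were sampled without (basal) and with insulin (100 nM, 15 min), DKO cells only without. There were 26 libraries in 9 groups, 3 per group and 2 for ∆CT with insulin. Each receptor was studied in 1 stable line, so p-values measure the spread between samples of a line and not between independently made lines. The cells were not put through a differentiation protocol before RNA was taken. When such a protocol was applied, the authors report, only IR and ∆CT cells differentiated and gained lipid. The levels given here were taken without it and are not a measure of that capacity.

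Preadipocytes become fat cells through a relay of transcription factors. C/EBPβ and C/EBPδ are switched on first after an adipogenic stimulus, they induce PPARγ and C/EBPα, and these drive each other and the genes of the mature cell, among them *Fabp4*, which encodes a fatty acid carrier. ZFP423 and EBF2 act before this relay in committed precursors, PRDM16 with EBF2 sets the brown programme, and PDGFRα, a growth factor receptor tyrosine kinase, marks the stromal precursors from which fat cells arise.

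Library totals ran from 17228982 to 24694828 counts. Levels are CPM (counts scaled to the library total) after TMM scaling, given as mean ± SD over the libraries of a group. Differences are log2 fold changes from the quasi-likelihood test of edgeR, and p-values were adjusted (Benjamini-Hochberg) over the 15402 genes that exceeded 0.5 CPM in at least 4 libraries, and a gene was called when its adjusted p was below 0.05. As a check of the labels, *Insr*, counted on mouse sequence although the receptors are human, was at 22.3 to 24.8 CPM in the DKO libraries and at 65.5 to 99.7 CPM in all receptor libraries. *Igf1r*, which no vector restored, was at 24.7 to 28.6 CPM in DKO and at 29.7 to 35.7 CPM in receptor libraries. Reads from a transcript that has lost a floxed exon would still count, so these levels do not measure the knockout itself. The source of the reads in DKO cells was not tested. The authors report neither receptor in DKO cells by qPCR or immunoblot.

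Of the 9 genes, 6 were abundant enough to be tested and 3 were not. Per kilobase of the longest coding transcript, *Pdgfra* had the highest level in DKO cells, 23.9 CPM per kilobase, followed by *Cebpb* with 10.7 and *Cebpd* with 6.02. The levels per kilobase of *Fabp4* (2.77), *Cebpa* (2.37), and *Pparg* (2.15) were lower. *Zfp423*, *Ebf2*, and *Prdm16*, at 0.0457, 0.034, and 0.00576 CPM per kilobase in DKO cells, did not reach 0.5 CPM in any of the 26 libraries. The regulators of the relay were thus present as RNA in every library. *Zfp423* and the brown precursor genes *Ebf2* and *Prdm16* were near the limit of counting.

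Genes of the mature fat cell were unevenly represented, and 14 of a list of 26 were abundant enough to be tested. In this list, which includes *Fabp4*, *Lep*, *Cfd*, and *Cidec* had 0 counts in all 26 libraries, which allows up to 3 counts over all of them. *Adipoq* (adiponectin) had 3 counts in all and *Plin1*, which coats the lipid droplet, 60. The list's most abundant genes were *Adipor2*, with group means from 70.5 to 96.9 CPM, and *Lpin1*, from 45.2 to 92.9 CPM, both of which are used outside fat as well. Some enzymes of lipid storage and release were expressed too. Group means were 25.2 to 47.8 CPM for *Lpl*, 23.5 to 27.9 for *Pnpla2*, 23.1 to 27 for *Dgat1*, 15.1 to 25.2 for *Acsl1*, and 11.2 to 13.9 for *Lipe*. Other enzymes of the list were low, at 0.118 to 0.424 CPM for *Mgll* and 0.246 to 0.582 for *Gpd1*, and *Pck1* had 18 counts in all. Of 23 brown adipocyte genes, *Ucp1*, the uncoupling protein, had 1 count in all libraries and *Cidea* 5. *Zic1*, a transcription factor typical of brown fat precursors, was at 111 to 140.1 CPM in the group means, and *Pdk4*, a kinase that restrains pyruvate use, was at 146 to 227 CPM. The stromal progenitor genes *Vim* and *Itgb1* were at 1203 to 1857 CPM and 748 to 919 CPM. *Myf5* and *Myod1* of the muscle lineage had 0 counts. Other members of the brown list, *Lhx8* with 22 counts in all and *Epsti1* with 54, were nearly absent. *Tbx15*, a transcription factor of that list, was at 21.5 to 27.3 CPM in the group means. Homeobox genes of the white list were expressed, *Hoxc8* at 26.2 to 32.2 CPM, *Hoxc9* at 12 to 16.2, and *Hoxc10* at 11.6 to 16.4 in the group means. Others of the white list were nearly absent, with 95 counts in all for *Tmem26*, 64 for *Tcf21*, 50 for *Wt1*, 6 for *Nnat*, 3 for *Tbx1*, and 1 for *Slc7a10*. The lipid enzymes, *Lhx8*, *Epsti1*, *Tbx15*, and these genes of the white list were named after their values were seen. The label of undifferentiated brown preadipocytes was met by *Zic1* and *Tbx15* of the brown list. It was not met by *Ebf2* and *Prdm16*, which define committed brown precursors, nor by *Lhx8* and *Epsti1*. *Pdgfra* and *Vim* were expressed too, but they belong to the stromal and not the brown list. Of the 16 stromal genes 15 were abundant enough to be tested. Others of them were low, with group means of 0 to 0.823 CPM for *Lum*, 0.581 to 3.71 for *Dcn*, and 0.633 to 1.59 for *Pi16*. *Dpp4* had 64 counts in all. These low genes were also named after their values were seen.

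**Figure D1:**
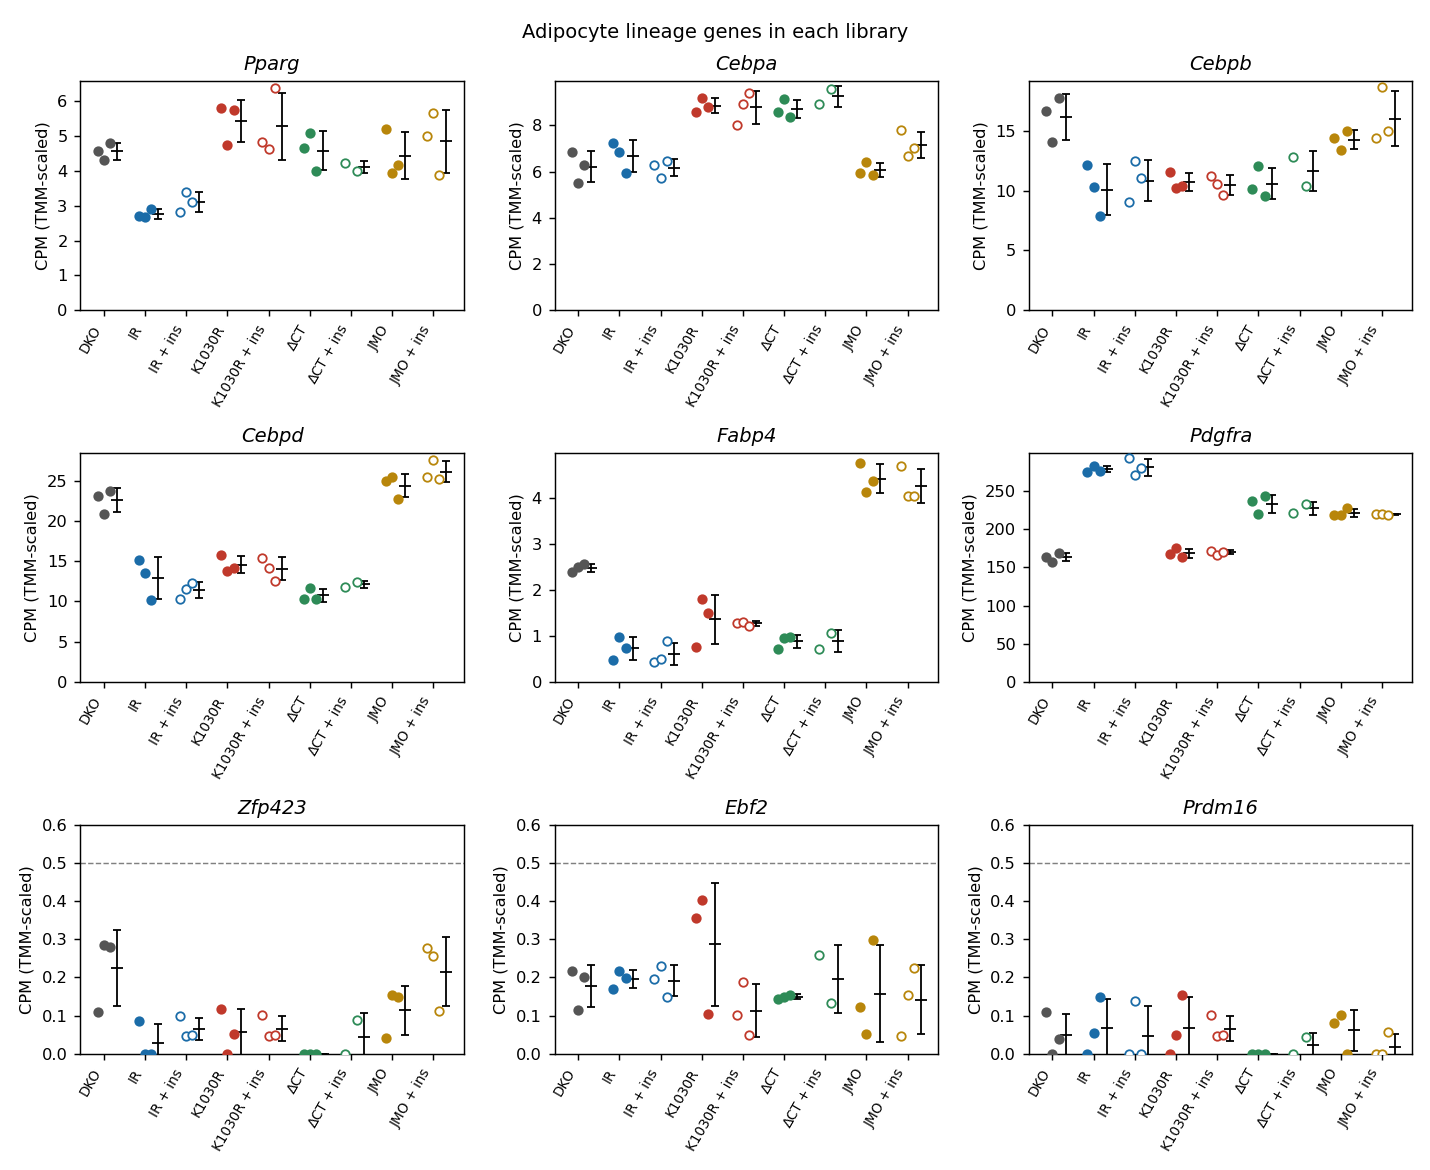
Level of each of the 9 genes in every library (points, filled for basal and open for insulin), in TMM-scaled CPM, with the mean ± SD of each group beside them in black. The dashed line marks 0.5 CPM, which *Zfp423*, *Ebf2*, and *Prdm16* did not reach; *Cebpb*, *Cebpd*, and *Fabp4* were low in IR, K1030R, and ∆CT libraries, and *Pparg* was low in IR libraries.

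Promoter sequence was looked up to show which of these genes carry the letters of C/EBP and other binding motifs near their start. The RefSeq table (GRCm38.p6) holds windows from 250 bases before to 50 after a start for 6 of the 9 genes, 9 windows in all, with 3 starts for *Pparg* and 2 for *Zfp423*. *Cebpd*, *Fabp4*, and *Ebf2* have none in it. The 250 bases upstream are printed for the tested genes, for *Pparg* at the most downstream of its starts, which holds the C/EBP letters. Capitals mark matches to the motifs named after them, and all are written 5′ to 3′ on the plus strand, on which these genes lie.
*Cebpb*, chr2:167688665-167688914: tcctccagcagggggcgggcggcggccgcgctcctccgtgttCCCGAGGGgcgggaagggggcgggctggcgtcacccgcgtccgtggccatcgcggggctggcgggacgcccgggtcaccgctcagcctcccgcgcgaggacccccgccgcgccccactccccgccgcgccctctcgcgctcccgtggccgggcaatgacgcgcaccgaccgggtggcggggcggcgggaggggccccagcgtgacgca
*Cebpa*, chr7:35119043-35119292: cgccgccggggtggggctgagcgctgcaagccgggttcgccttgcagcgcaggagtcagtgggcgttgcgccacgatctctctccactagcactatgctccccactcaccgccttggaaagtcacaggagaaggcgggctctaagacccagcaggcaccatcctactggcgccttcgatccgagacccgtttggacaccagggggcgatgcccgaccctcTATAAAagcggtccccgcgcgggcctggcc
*Pparg*, chr6:115421816-115422065: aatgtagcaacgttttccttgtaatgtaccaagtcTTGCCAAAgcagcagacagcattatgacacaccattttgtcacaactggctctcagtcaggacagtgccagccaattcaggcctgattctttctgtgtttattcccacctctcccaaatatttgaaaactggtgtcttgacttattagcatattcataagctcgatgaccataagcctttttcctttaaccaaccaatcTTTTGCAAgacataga
*Pdgfra*, chr5:75152001-75152250: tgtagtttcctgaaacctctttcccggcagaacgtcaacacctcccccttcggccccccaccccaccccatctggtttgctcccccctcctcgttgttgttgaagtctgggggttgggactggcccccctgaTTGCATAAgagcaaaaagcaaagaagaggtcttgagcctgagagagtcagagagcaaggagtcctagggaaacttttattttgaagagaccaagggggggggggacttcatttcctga

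The C/EBP letters TTGCNNAA, searched on both strands, were found at the downstream *Pparg* start at positions -215 to -208 and -16 to -9 relative to the start. They were also found in *Pdgfra* at -118 to -111, with a second match past the start. In *Zfp423* they were found at -131 to -124 and once past the start. Of 32851 promoter windows, 10.8% hold these letters. *Cebpb* had a match to the EBF letters CCCNNGGG at -208 to -201, and *Zfp423* had one at -28 to -21, against 13.7% of all windows. The TATA letters TATAAA stood at -30 to -25 in *Cebpa*, at -29 to -24 on the other strand at the second *Pparg* start, and past the listed start in *Cebpb*, against 13.6% of windows. No window of the 6 genes held the CRE letters TGACGTCA (1.79% of windows), the STAT letters TTCNNNGAA (8.3%), or the PPAR response element (0.0396%). A match is a description of the letters and not evidence of binding.

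To ask whether the presence of a receptor goes with a different differentiation state, each receptor line was compared with DKO cells in the basal state. These 4 comparisons share the DKO libraries. In IR cells, 5 of the 6 tested genes were called, against 49.8% of all genes, with *Pparg*, *Cebpb*, *Cebpd*, and *Fabp4* lower and *Pdgfra* higher. Of all genes, 25.6% were called higher and 24.1% lower. In K1030R cells 4 of 6 were called, against 41.6%, with *Cebpb*, *Cebpd*, and *Fabp4* lower and *Cebpa* higher (21.2% of all genes higher, 20.4% lower). In ∆CT cells 5 of 6 were called, against 46.3%, with *Cebpb*, *Cebpd*, and *Fabp4* lower and *Cebpa* and *Pdgfra* higher (23.4% higher, 22.9% lower). In JMO cells 2 of 6 were called, against 34.3%, *Fabp4* and *Pdgfra*, both higher (16.9% higher, 17.4% lower). With backgrounds this high and 6 genes, the counts themselves are not a result about the list, and the sizes are given below gene by gene.

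Against a minimum fold of 1.5 (edgeR's glmTreat), 2 genes were called in IR cells, *Fabp4* and *Pdgfra*, against 6.89% of all genes, and 2 in ∆CT cells, *Cebpd* and *Fabp4*, against 6.29%. None was called in K1030R cells, against 5.29%, or in JMO cells, against 2.11%. Without a minimum fold, 4 and 2 were called in those lines, as given above.

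**Figure D2:**
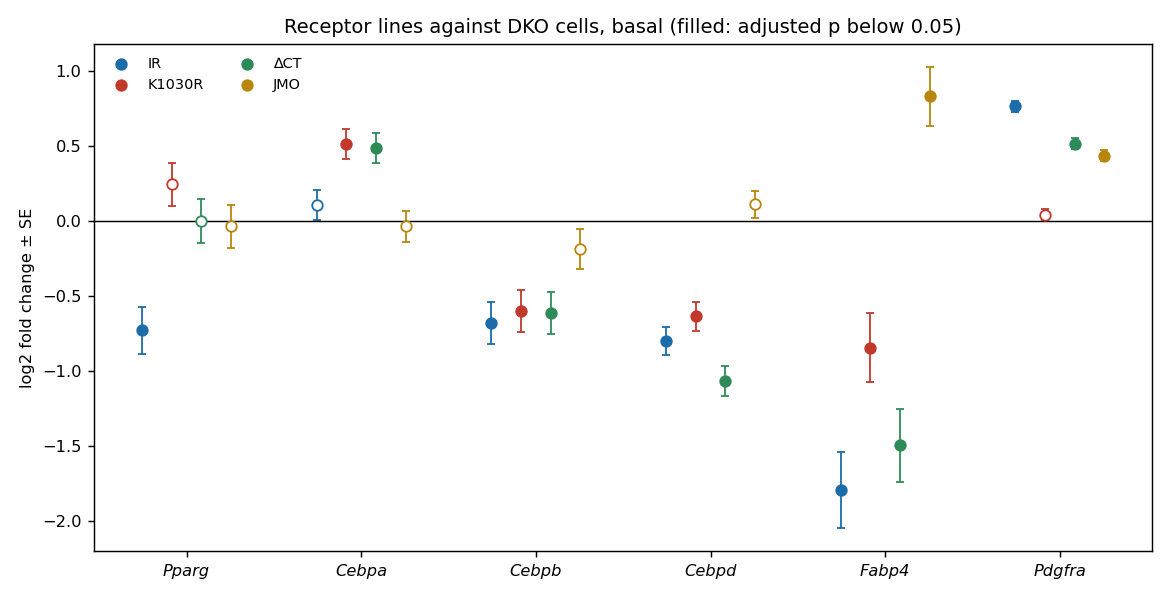
Log2 fold change ± SE of the 6 tested genes in basal IR, K1030R, ∆CT, and JMO cells against basal DKO cells, filled where the adjusted p was below 0.05. *Fabp4* spanned the widest range, from -1.79 in IR to 0.83 in JMO cells, and *Pdgfra* was near 0 only in K1030R cells.

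*Cebpb* (ENSMUSG00000056501, GRCm38 chromosome 2:167688915-167690418, 1 exon), an early factor of the relay, was lower in the lines with a whole or nearly whole intracellular domain. The DKO libraries held 16.6, 14, and 17.8 CPM. IR libraries held 12.1, 10.3, and 7.86 CPM, K1030R 11.5, 10.2, and 10.3, and ∆CT 10.1, 12.1, and 9.57. JMO libraries, at 14.4, 13.4, and 15 CPM, overlapped those of DKO, while the libraries of the other receptor lines all lay below both. Against DKO the log2 fold changes were -0.68 for IR (SE 0.139, adjusted p = 0.000243 in edgeR), -0.60 for K1030R (adjusted p = 0.00113), and -0.62 for ∆CT (adjusted p = 0.00073). In JMO cells the change was -0.19, with a 95% interval from -0.47 to 0.09 (adjusted p = 0.309). JMO cells were higher than IR cells by 0.49 on the log2 scale (adjusted p = 0.00607), than K1030R by 0.42 (adjusted p = 0.0231), and than ∆CT by 0.43 (adjusted p = 0.0171). The call against K1030R was lost without K1030R replicate 2 (adjusted p = 0.0792) or 3 (0.0746) and without JMO replicate 1 (0.0574) or 3 (0.0736). The call against ∆CT was lost without ∆CT replicate 1 (adjusted p = 0.0648) or 3 (0.0748) and without JMO replicate 3 (0.0582). IR, K1030R, and ∆CT cells were not told apart: the differences of K1030R and ∆CT from IR were 0.08 (95% interval -0.23 to 0.39) and 0.06 (-0.24 to 0.37).

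*Cebpd* (ENSMUSG00000071637, chromosome 16:15887286-15891031, 1 exon), its early partner, separated the lines more clearly. It was at 23, 20.9, and 23.7 CPM in DKO and at 25, 25.4, and 22.7 CPM in JMO libraries. IR libraries held 15.2, 13.5, and 10.1 CPM, those of K1030R 15.8, 13.8, and 14.1, and those of ∆CT 10.3, 11.7, and 10.4. DKO and JMO libraries overlapped each other, and the lowest of them exceeded the highest of the other lines. The log2 fold change against DKO was -0.80 ± 0.0962 (SE) for IR (adjusted p = 2.36e-08), -0.64 for K1030R (adjusted p = 1.97e-06), -1.07 for ∆CT (adjusted p = 1.25e-10), and 0.11 for JMO (95% interval -0.08 to 0.30, adjusted p = 0.377). JMO cells had 1.88 times the level of IR cells (adjusted p = 1.86e-09), 1.68 times that of K1030R (adjusted p = 1.38e-07), and 2.26 times that of ∆CT cells (adjusted p = 1.54e-11). Among the 3 low lines, ∆CT was below K1030R by a log2 of -0.43 (adjusted p = 0.0163), a call that was lost without K1030R replicate 1 (adjusted p = 0.102), ∆CT replicate 1 (0.0864), or ∆CT replicate 3 (0.0538), and with insulin libraries in place of basal ones (-0.21, adjusted p = 0.338). ∆CT differed from IR cells by -0.27 (adjusted p = 0.0611), which became -0.41 (adjusted p = 0.00116) without IR replicate 3.

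*Pparg* (ENSMUSG00000000440, chromosome 6:115360951-115490399), the master regulator of fat cell formation, was low in IR cells and not in the mutant lines. IR libraries held 2.69, 2.66, and 2.91 CPM, and DKO libraries 4.57, 4.32, and 4.8. K1030R libraries held 5.8, 4.73, and 5.74 CPM, ∆CT 4.65, 5.09, and 3.98, and JMO 5.2, 3.93, and 4.16. Every IR library was below every other basal library. IR cells had 0.602 times the DKO level (log2 -0.73, adjusted p = 0.000177). The levels in the other lines differed from DKO by 0.24 for K1030R (95% interval -0.06 to 0.55), 0.00 for ∆CT (-0.31 to 0.31), and -0.04 for JMO (-0.34 to 0.27). Against IR, the log2 difference was 0.97 for K1030R (SE 0.155, adjusted p = 6.73e-06), 0.73 for ∆CT (adjusted p = 0.00049), and 0.69 for JMO (adjusted p = 0.000415). With insulin libraries in place of basal ones the ∆CT difference was 0.40 and was not called (adjusted p = 0.101). The table sums all *Pparg* transcripts to 1 gene, so its isoforms were not separated.

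*Cebpa* (ENSMUSG00000034957, chromosome 7:35119293-35121928, 1 exon), the partner of PPARγ in the second step, was higher in K1030R and ∆CT cells. K1030R libraries held 8.58, 9.21, and 8.8 CPM and ∆CT libraries 8.58, 9.14, and 8.38. DKO libraries held 6.85, 5.51, and 6.29 CPM, IR 7.26, 6.84, and 5.93, and JMO 5.94, 6.43, and 5.85. The K1030R and ∆CT libraries all exceeded those of DKO, IR, and JMO, which overlapped each other. Against DKO the log2 fold change was 0.51 in K1030R (SE 0.0998, adjusted p = 7.13e-05) and 0.48 in ∆CT (adjusted p = 0.00012). It was 0.10 in IR (95% interval -0.11 to 0.32) and -0.04 in JMO cells (-0.26 to 0.18). Against IR cells it was 0.41 in K1030R (adjusted p = 0.0015) and 0.38 in ∆CT cells (adjusted p = 0.00332). JMO cells were below K1030R by a log2 of -0.55 (adjusted p = 3.3e-05) and below ∆CT by -0.52 (adjusted p = 5.44e-05). *Cebpa* thus did not follow *Cebpb* and *Cebpd* across the lines.

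*Fabp4* (ENSMUSG00000062515, chromosome 3:10204088-10208576, minus strand), the lipid carrier that PPARγ and C/EBPα induce, varied most. The JMO libraries held 4.76, 4.13, and 4.36 CPM, from 117, 81, and 88 counts. DKO libraries held 2.39, 2.5, and 2.56 CPM. IR libraries held 0.47, 0.977, and 0.741 CPM, from 11, 18, and 15 counts, K1030R 0.77, 1.81, and 1.5, and ∆CT 0.711, 0.949, and 0.983. All JMO libraries were above all DKO libraries, and these were above every library of the other lines. IR cells had 0.288 times the DKO level (95% interval 0.199 to 0.418, adjusted p = 2.64e-07), ∆CT 0.354 times (adjusted p = 3.99e-06), and K1030R 0.556 times (adjusted p = 0.00283). JMO cells had 1.78 times the DKO level (95% interval 1.34 to 2.36, adjusted p = 0.00099). They had 6.16 times the level of IR cells (adjusted p = 2.23e-11), 5.01 times that of ∆CT (adjusted p = 2.17e-10), and 3.2 times that of K1030R (adjusted p = 7.96e-08). K1030R exceeded IR by a log2 of 0.95 (SE 0.279, adjusted p = 0.00827) although their libraries overlapped, and this call was lost without IR replicate 1 (0.69, adjusted p = 0.0884) or K1030R replicate 2 (0.69, adjusted p = 0.0973). In lipid-filled fat cells *Fabp4* is among the most abundant messages, and all levels here rest on at most 117 counts per library.

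*Pdgfra* (ENSMUSG00000029231, chromosome 5:75152292-75198215), the precursor receptor, was higher in 3 of the 4 receptor lines and followed another order of lines. It was at 164, 158, and 169 CPM in DKO and at 167, 175, and 164 CPM in K1030R libraries, which overlapped. IR libraries held 275, 283, and 276 CPM, those of ∆CT 236, 220, and 244, and those of JMO 219, 218, and 227. IR libraries lay above those of all other lines, and ∆CT and JMO libraries overlapped each other in between. Against DKO the fold was 1.7 for IR (95% interval 1.61 to 1.79, adjusted p = 1.13e-18), 1.43 for ∆CT (adjusted p = 8.25e-14), 1.35 for JMO (adjusted p = 1.69e-11), and 1.03 for K1030R (95% interval 0.974 to 1.09, adjusted p = 0.411). K1030R had 0.606 times the level of IR cells (adjusted p = 1.38e-16). ∆CT had 0.839 times (adjusted p = 1.81e-06) and JMO 0.796 times the level of IR cells (adjusted p = 2.41e-09). JMO differed from ∆CT by a log2 of -0.08 (adjusted p = 0.0923). In a bulk sample, less RNA per cell and fewer cells that express a gene cannot be told apart.

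The remaining 3 genes are given as counts. *Zfp423* (ENSMUSG00000045333, chromosome 8:87661810-87959595), a zinc finger factor of committed precursors, had 2, 5, and 7 counts in the DKO and 1, 3, and 3 in the JMO libraries. IR libraries held 2, 0, and 0 counts, those of K1030R 2, 0, and 1, and those of ∆CT 0 each. Summed over a group and scaled to its total, the DKO level was 7.13 times that of IR, with an exact 95% counting interval from 1.64 to 64.6, and 4.29 times that of K1030R (1.2 to 23.3). Against the 0 counts of ∆CT cells the interval began at 3.29, and with 3 counts over the group as a floor the ratio was 4.63. The ratio of DKO to JMO was 2.11 (0.798 to 6.18). These intervals cover counting error only and are not tests between lines. With insulin, *Zfp423* had 13 counts in JMO, 4 each in IR and K1030R, and 2 in ∆CT cells.

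*Ebf2* (ENSMUSG00000022053, chromosome 14:67233292-67430918), a factor of brown precursors, had 93 counts over all 26 libraries and at most 8 in one. The basal group sums of DKO, IR, K1030R, ∆CT, and JMO were 11, 12, 16, 9, and 10, and every ratio to DKO had a counting interval that held 1. *Prdm16* (ENSMUSG00000039410, chromosome 4:154316125-154636873), which diverts precursors to the brown fate, had 24 counts in all and 0 in 12 libraries. Its basal group sums were 3, 4, 4, 0, and 4 in the same order. No difference from DKO was detectable in either gene at this depth.

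The receptor lines were also compared with each other. With 1 line per receptor, these differences are between lines and cannot be assigned to kinase activity or to the C-terminus. Between K1030R and IR, 4 of 6 genes were called, against 30.2% of all genes (*Pparg*, *Cebpa*, and *Fabp4* higher in K1030R, *Pdgfra* lower), and with a minimum fold of 1.5 only *Pdgfra*, against 1.04%. Between ∆CT and IR, 3 of 6 were called, against 26.1% (*Pparg* and *Cebpa* higher in ∆CT, *Pdgfra* lower), and 0 with the minimum fold, against 0.708%. Between ∆CT and K1030R, 2 of 6 were called, against 3.43%, *Pdgfra* higher (log2 0.47, adjusted p = 6.12e-11) and *Cebpd* lower in ∆CT, and 0 with the minimum fold, against 0.039%.

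JMO cells differed from IR in 5 of 6 genes, against 42.4% (2 with the minimum fold, *Cebpd* and *Fabp4*, against 4.59%). They differed from K1030R in 5, against 35.4% (1 with the minimum fold, *Fabp4*, against 3.64%), and from ∆CT in 4, against 38.8% (2, *Cebpd* and *Fabp4*, against 4.5%). In each of these 3 comparisons *Cebpb*, *Cebpd*, and *Fabp4* were higher in JMO cells. The JMO libraries are shared by them.

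Across the 9 group means the levels of *Cebpb* and *Cebpd* had a Pearson r of 0.911, *Fabp4* and *Cebpd* 0.966, and *Pparg* and *Cebpa* 0.501, while *Pdgfra* and *Pparg* had -0.843. Groups of one line are near-repeats of each other, so these values describe 5 lines and carry no test. *Cebpd* and *Fabp4* were each compared with the 2526 other genes that spanned at least 1 log2 unit over the groups. Those most like *Cebpd* were *Map3k5* (r = 0.9959), a stress-activated kinase, and *Cxcl5* (r = 0.9834), a chemokine. *Cxcl5* averaged 122 CPM in the DKO group, against 148 with JMO, 28.3 with IR, 40.1 with K1030R, and 31.6 with ∆CT. Those most like *Fabp4* were *Galnt13* (r = 0.9912), a glycosyltransferase, and *Cacna1c* (r = 0.9891), a calcium channel subunit, the latter at 84.9, 100.1, 45.4, 55.8, and 49.6 CPM in the same order.

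None of the tested genes passed the test between insulin and basal libraries of any line. In edgeR's quasi-likelihood test, 0 of 6 tested genes were called for IR (1.87% of all genes), 0 for K1030R (0.156%), 0 for ∆CT (1.01%), and 0 for JMO (0.364%). At an unadjusted p below 0.05 there were 0, 0, 0, and 1, with DESeq2 0 in each line, and with limma on voom values 0, 0, 0, and 1. The log2 fold changes of the 6 genes lay between -0.22 and 0.24, with adjusted p from 0.416 to 1. Leaving out *Fabp4*, whose few counts widen its error, the 95% intervals of all lines lay between -0.50 and 0.52.

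In IR cells *Cebpb* was at 12.1, 10.3, and 7.86 CPM without and at 9.02, 12.4, and 11.1 CPM with insulin, and the libraries overlapped. *Cebpd* was at 15.2, 13.5, and 10.1 CPM without and at 10.3, 11.6, and 12.2 CPM with insulin, a log2 change of -0.19 (95% interval -0.41 to 0.03, adjusted p = 0.416). Without IR basal replicate 3, the lowest for *Cebpb* and *Cebpd*, the *Cebpd* change was -0.34 and was called (adjusted p = 0.0253). *Pdgfra* was at 278 ± 3.94 CPM without and 281 ± 11.5 with insulin (n = 3 each). The largest change of the 24 was that of *Cebpa* in JMO cells, from 5.94, 6.43, and 5.85 CPM to 7.79, 6.69, and 7.03 CPM, a log2 of 0.24 (SE 0.101, adjusted p = 0.6).

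The difference of the insulin effect from that in IR cells was tested as an interaction, with 0 of 6 genes called for K1030R (0.37% of all genes), 0 for ∆CT (0.00649%), and 0 for JMO cells (0.279%). At an unadjusted p below 0.05 there were 0, 1, and 2 genes with edgeR, 0, 1, and 0 with DESeq2, and 0, 0, and 1 with limma on voom values.

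**Figure D3:**
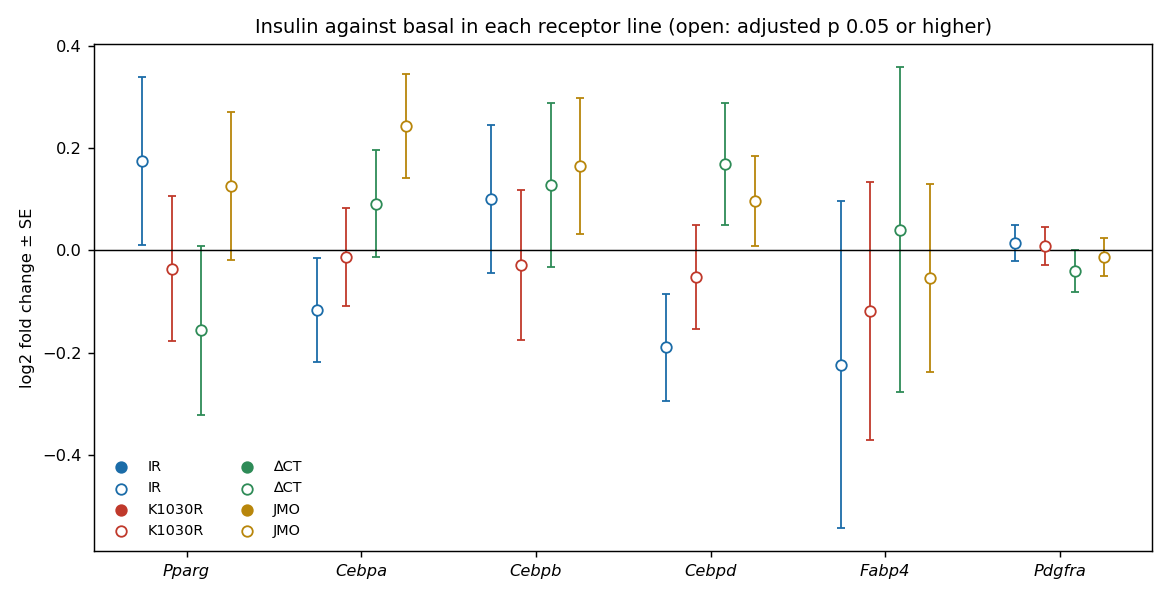
Log2 fold change ± SE of the 6 tested genes between insulin and basal libraries of IR, K1030R, ∆CT, and JMO cells, open because no adjusted p was below 0.05. All 24 values lie between -0.22 and 0.24, and *Fabp4* has the widest error bars.

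The wider programme was followed in 13 lists of pathway and cell type genes, 187 genes in all, some of them in 2 lists. The lists were chosen with earlier results of these data known, so the shares called in them are descriptions. In IR against DKO cells the median log2 fold change of all tested genes was 0.01. Among 27 paralogues and partners of the 9 genes, 22 were tested, 10 were called higher and 6 lower (72.7% called, against the 49.8% of all genes), with a median of 0.07. *Zfp521*, an antagonist of ZFP423 and EBF factors, rose from 28.6 ± 1 CPM in DKO to 77.9 ± 5.4 with IR, 51.7 ± 3.8 with K1030R, 49.9 ± 5.1 with ∆CT, and 40.3 ± 2.4 with JMO. Its log2 fold change in IR cells was 1.44 (adjusted p = 1.1e-19). *Ppara*, the PPAR of fat burning tissues, was higher (1.59, adjusted p = 0.000301), with group means of only 0.383 to 1.3 CPM. *Pdgfb*, a ligand of the PDGF receptors, was lower (-1.87, adjusted p = 0.00227), from 0.97 to 0.26 CPM.

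Of 19 other inducers of adipogenesis, 15 were tested, 5 were called higher and 6 lower in IR cells (73.3%, against 49.8%, median 0.03). The oxysterol receptor *Nr1h3* (-1.43, adjusted p = 2.55e-05), the early factor *Klf4* (-1.04, adjusted p = 6.54e-14), and the growth factor *Fgf10* (-0.93, adjusted p = 5.81e-20) were lower. *Nr1h3* had low group means, 0.759 to 2.2 CPM. *Fgf10* was at 135 ± 1.5 CPM in DKO, 131 ± 3.8 in JMO, 71.1 ± 2.7 with IR, 88.2 ± 5.3 with K1030R, and 77.1 ± 2.9 with ∆CT. Of 22 inhibitors of adipogenesis, 19 were tested, 5 were called higher and 6 lower (57.9%, against 49.8%, median -0.05). *Trib3*, a pseudokinase that restrains AKT and PPARγ, was higher (2.36, adjusted p = 1.88e-20), as was *Gata2*, which holds precursors undifferentiated (1.20, adjusted p = 7.86e-11). *Wnt10b*, the canonical WNT brake on fat formation, was lower (-1.58, adjusted p = 4.44e-12). Inducers and inhibitors were thus called in both directions.

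Of 26 mature adipocyte genes 14 were tested, with 4 called higher and 4 lower in IR cells (57.1%, against 49.8%, median 0.07). Apart from *Fabp4*, the largest changes were in *Slc2a4*, the insulin-responsive glucose transporter (0.95, adjusted p = 0.0432), at 0.35 CPM in DKO and 0.667 in IR cells, and in *Plin4*, a lipid droplet protein (-0.92, adjusted p = 9.55e-10). *Plin4* was at 49.4 ± 2.3 CPM in DKO, 48.6 ± 2.1 in JMO, 26.2 ± 0.23 with IR, 32 ± 2.8 with K1030R, and 26.4 ± 3.7 with ∆CT. In JMO against DKO cells 5 genes of this list were called higher and 3 lower (57.1%, against 34.3%), with a median of 0.23 beside 0.01 for all genes. Of 23 brown adipocyte genes 9 were tested, with 4 higher and 2 lower in IR cells (66.7%, against 49.8%, median -0.01). *Ppargc1a*, the coactivator of mitochondrial biogenesis, was higher (1.09, adjusted p = 3.52e-11), at 5.78 ± 0.41 CPM in DKO and 12.4 ± 0.87 in IR cells, and its relative *Ppargc1b* lower (-0.66, adjusted p = 0.0398). Of 12 white and beige genes 6 were tested and 83.3% called, against 49.8%, with 2 higher, among them *Cited1* (0.77, adjusted p = 0.0136). The 3 lower included *Tnfrsf9* (-1.27, adjusted p = 0.0044) and the matrix gene *Dpt* (-0.93, adjusted p = 1.07e-11). Group means were 0.158 to 0.856 CPM for *Tnfrsf9* and 0.825 to 4.18 for *Cited1*.

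Stromal progenitor markers, 16 genes with *Pdgfra* among them, were called in different shares in the lines. In IR cells 10 of 15 tested were higher and 4 lower (93.3%, against 49.8%), with a median of 0.57. In K1030R cells 66.7% were called, against 41.6%, with a median of 0.04, and in ∆CT cells 80%, against 46.3%, with a median of 0.24. In JMO cells 4 were higher and 5 lower (60%, against 34.3%), with a median of -0.06. *Ly6a*, the stem cell antigen Sca-1, fell from 44.9 ± 3.7 CPM in DKO to 4.51 ± 1.1 with IR, 3.52 ± 0.081 with K1030R, 2.9 ± 0.71 with ∆CT, and 10.7 ± 0.79 with JMO. Its log2 fold change in IR cells was -3.33 (adjusted p = 1.82e-23). *Cd34*, another surface marker, was higher in IR cells (1.81, adjusted p = 4.49e-16), at 3.45 ± 0.54 CPM in DKO and 12.3 ± 0.2 in IR cells. The matrix gene *Lum* was higher from few counts (2.98, adjusted p = 7.95e-05).

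Of 113 tested genes of these lists, 8 were called with insulin in IR cells (7.08%, against 1.87% of all genes), 1 in K1030R (0.885%, against 0.156%), 6 in ∆CT (5.31%, against 1.01%), and 5 in JMO cells (4.42%, against 0.364%). In IR cells the inhibitors *Klf2* (1.25, adjusted p = 9.51e-17) and *Hes1* (1.30, adjusted p = 4.37e-14), *Ddit3*, a C/EBP relative that blocks C/EBP dimers (0.58, adjusted p = 1.67e-12), and *Klf6*, an inducer (0.54, adjusted p = 6.92e-13), were higher with insulin. All 4 were also called in ∆CT cells, and *Klf2* and *Klf6* in JMO cells (0.36 and 0.17, adjusted p = 0.0107 and 0.039). The other calls of the lists in IR cells were *F3* (0.56), *Cd68* (0.64), and *Pdk4* (0.13), higher, and *Ctbp1* (-0.14), lower. These genes were chosen after their values were seen. The authors report *Hes1* as induced by insulin in these cells, and the lists were chosen with earlier results known. The shares set beside those of all genes are thus a description and not a test. Of 14 tested mature adipocyte genes 0 were called with insulin in any line with edgeR.

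**Figure D4:**
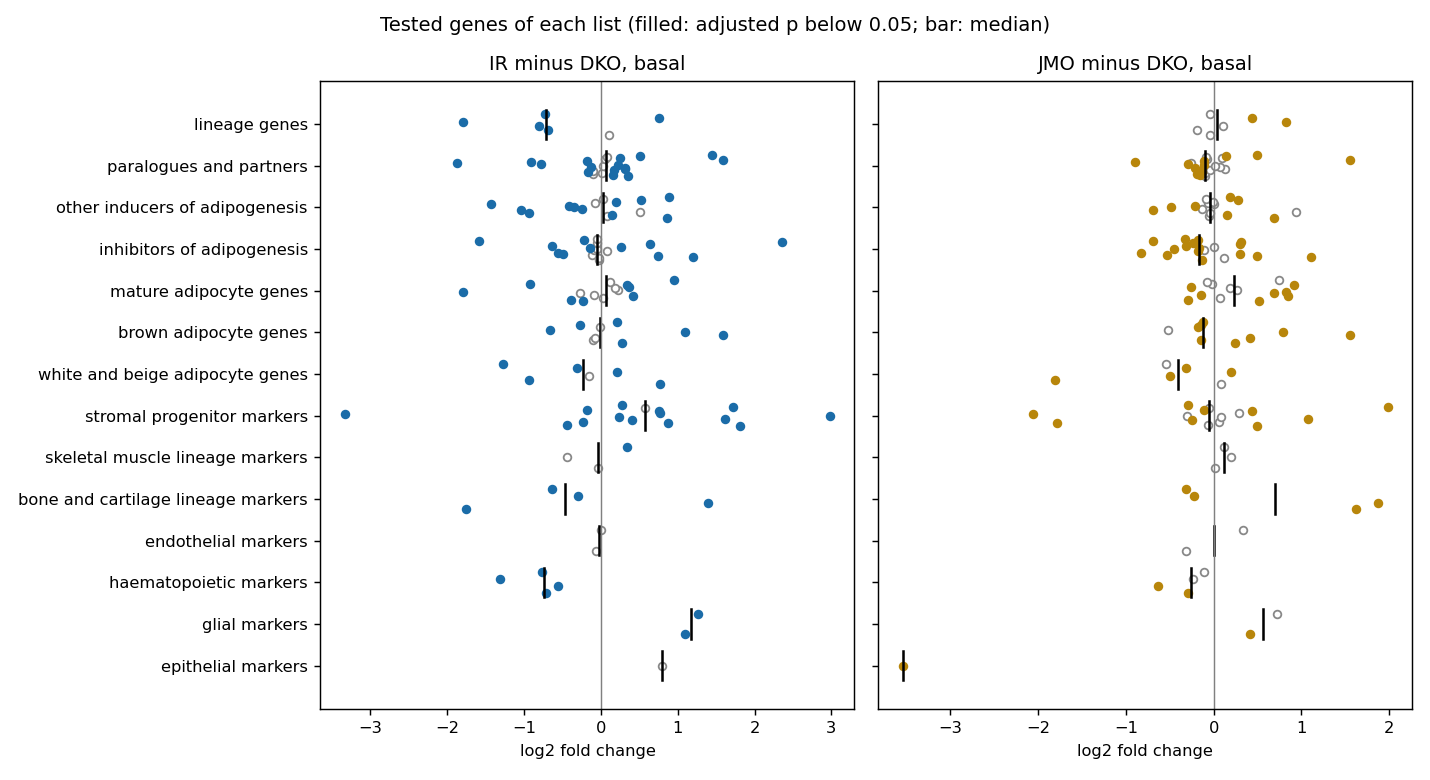
Log2 fold change of the tested genes of each list in basal IR (left) and JMO cells (right) against basal DKO cells, 1 point per gene, filled where the adjusted p was below 0.05, with the list's median as a bar. The 9 lineage genes, of which 6 were tested, have a median of -0.71 in IR and 0.04 in JMO cells.

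Some of these genes are also used by other cells: endothelium uses *Fabp4*, and macrophages use *Fabp4*, *Cebpb*, and *Cebpd*. Of 9 haematopoietic markers, 4 were tested, and all 4 were lower in IR than in DKO cells, against 24.1% of all genes. Their summed level was 29.8 to 33.1 CPM in DKO and 25.9 to 27.6 CPM in JMO libraries, against 18.9 to 19.4 with IR, 17.5 to 19.3 with K1030R, and 17.6 to 18.4 with ∆CT, all without insulin. *Cd14* and *Lyz2* made up most of it, at 15.8 and 11.5 CPM in DKO and 9.59 and 6.82 in IR cells. *Csf1r*, with group means of 0.333 to 0.83 CPM, was lower too (-1.31, adjusted p = 0.00318). The defining *Adgre1* had 0 counts in all libraries and *Ptprc*, the pan-leukocyte antigen, stayed at or below 0.399 CPM in each. The part of such cells in the levels of *Cebpb*, *Cebpd*, and *Fabp4* was not tested. Of 7 endothelial markers 2 were tested and 0 called in IR cells by edgeR, against 49.8% of all genes. *Pecam1* had group means of 8.99 to 13.1 CPM and *Vwf* of 0.696 to 1.14, *Cdh5* had 10 counts in all, and the summed level of 8.85 to 16.3 CPM in DKO libraries overlapped that of every other group.

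Among other lineages, 3 of 11 skeletal muscle markers were tested in IR against DKO cells. Of these 1 was called (33.3%, against 49.8% of all genes), *Pax3* (0.34, adjusted p = 0.0393). Of 9 bone and cartilage markers 4 were tested and all called, against 49.8% of all genes, with 1 higher, *Col2a1* (1.39, adjusted p = 0.00245), and 3 lower, among them *Alpl* (-1.75, adjusted p = 0.018) and *Sox9* (-0.64, adjusted p = 4.72e-09). In JMO cells all 4 were called too, against 34.3% of all genes, 2 higher and 2 lower. Their median of 0.70 includes *Alpl* and *Col2a1*, with group means of 0.0258 to 1.07 and 0.247 to 1.19 CPM. The summed level of the 9 markers was lower in basal JMO libraries, 78.8 to 83.7 CPM, than in DKO libraries, 90.1 to 98.6 CPM. *Runx2*, a bone factor, had group means of 52.9 to 64.7 CPM. Of the glial markers, *S100b*, with group means of 0.574 to 1.63 CPM, was higher (1.26, adjusted p = 0.000456), while *Sox10* had 1 count in all. Of 5 epithelial markers only *Krt8* was tested, which was not called in IR cells (0.79) and was lower in JMO than in DKO cells (-3.55, adjusted p = 0.00241), from a level of 0.253 CPM in DKO.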

How the data were processed

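Polyadenylated RNA was sequenced as stranded single-end libraries. The authors used fastp to trim reads, kallisto to quantify Ensembl mouse transcripts, and tximport to turn these into gene values. Versions of these tools are not given in the sources used here. The deposited values are these expected counts, unscaled, of which 79.9% are exactly whole. All 26 libraries were assigned from their labels and used.

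Counts were rounded, 15402 genes passed a filter of more than 0.5 CPM in 4 or more libraries (6 of the 9 genes), and libraries were scaled by TMM. Every group had its own mean in 1 robust quasi-likelihood model of all libraries in edgeR 4.0.16 (R 4.3.3), with Benjamini-Hochberg adjustment over all genes tested. The 17 comparisons were 10 between basal lines, 4 of insulin, and 3 of insulin effects. The minimum fold of 1.5 used glmTreat. Intervals (95%) of log2 fold changes used 17 residual degrees of freedom, and those of counts are exact and cover counting error only. At these depths 0.5 CPM is 8.61 to 12.3 counts. No 2 replicates agreed within counting noise (25 pairs, chi-square per degree of freedom 2.81 to 22.2). The biological coefficient of variation was 4.44%. The procedure was tested on simulated data in which all genes had the same dispersion, so differences in spread between genes were not covered.

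Named genes were the 9, for those spanning at least 1 log2 unit the 2 most alike, and from each list up to 3 called genes with the largest change between IR and DKO, those at 0 counts, and the 2 most abundant. The 9 genes and the lists were chosen with earlier results of these data known. Alternatives were RLE scaling, other filters, unrounded counts, DESeq2 1.42.0, limma 3.58.1 on voom values, only the groups compared, insulin libraries, replicate number as a block, and each library left out. Of 52962 gene IDs, 51916 had symbols, and coordinates are from GENCODE M21 (GRCm38). Proteomic and phosphoproteomic data were not analysed here. The result of 1 glial marker is not reported here.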

Additional observations from a re-analysis of the deposited data

How the results depend on the processing

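Calls of the 6 genes were the same under RLE scaling, a 10-count filter, unrounded counts, DESeq2, limma on voom values, and models of only the groups compared. The replicate numbers did not pair libraries: the median r of residuals was -0.00111 for 100 pairs of libraries with the same number and -0.00162 for 200 pairs with different numbers. With the replicate block the counts of called genes were 5, 4, 5, and 2 against DKO for IR, K1030R, ∆CT, and JMO, and 0 for insulin, so it changed no call.

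With a minimum fold of 1.5 the counts fell to 2, 0, 2, and 0 against DKO in that order, to 1 for K1030R, 0 for ∆CT, and 2 for JMO against IR, to 0 for ∆CT and 1 for JMO against K1030R, and to 2 for JMO against ∆CT, by the construction of that test. With insulin libraries in place of basal ones, 1 gene was called between ∆CT and K1030R. Leaving out single libraries moved that count between 1 and 2, the count for insulin in IR cells between 0 and 1, JMO against ∆CT between 3 and 5, JMO against K1030R between 4 and 5, and K1030R and ∆CT against IR each between 3 and 4, and left the other counts as they were. The cause was not tested. Without the filter, with insulin libraries, or without 1 library, *Cebpd* between lines near the threshold changed its call: ∆CT against IR was called without a filter (-0.27, adjusted p = 0.0243), and K1030R against IR with insulin libraries (0.30, adjusted p = 0.0229) or without IR replicate 1 (0.31, adjusted p = 0.0288). *Pparg* between JMO and K1030R was called without JMO replicate 1 (-0.42, adjusted p = 0.0455), and *Pdgfra* between JMO and ∆CT without ∆CT replicate 2 (-0.12, adjusted p = 0.0138). Signs changed in 85 of 3630 alternative values, all of them not called in either fit, the largest at -0.27 in the fit reported.

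Depth limits *Fabp4*, with 9 to 117 counts per library, and leaves *Zfp423*, *Ebf2*, and *Prdm16* without a test.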
